A study of Mus musculus with 6 samples.

Results

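Genes of T cell costimulation and restraint were followed in mouse microglia exposed to lipopolysaccharide (LPS), namely Cd40, Cd80, Cd86, Cd83, Cd274, Pdcd1lg2, Icosl and Tnfsf9. They were chosen by name, and all 8 of 8 were found among the 24340 genes of the deposited table. Microglia are the macrophages that reside in the brain, and these were primary cells cultured from newborn C57BL/6 mice under 3 days old. In 3 libraries the cells had received the DMSO vehicle for 1 h and then 1 ug/ml LPS for 5 h. In the other 3 libraries 10 uM C13, a small molecule that the series title calls an inhibitor of the kinase MOK, took the place of DMSO. Every library had received LPS, so the values show how LPS-exposed cells differed with C13 and say nothing of the response to LPS itself. RNA levels are FPKM (fragments scaled to transcript length and to the mapped fragments of the library), which are comparable between genes per unit of length.

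A T cell that meets its antigen on a myeloid cell also reads a set of accessory molecules on that cell. CD80 and CD86 of the B7 family engage CD28 to promote activation or CTLA-4 to restrain it, and the related ligand encoded by Icosl engages ICOS. The products of Cd274 and Pdcd1lg2, called PD-L1 and PD-L2, bind the inhibitory receptor PD-1. CD40 works in the other direction: it is a receptor of the TNF receptor superfamily through which the T cell, by CD40 ligand, activates the myeloid cell and NF-kappaB. In macrophages Toll-like receptor signalling through NF-kappaB and interferon is known to raise several of these genes.

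The libraries differed in ways that touch the comparison. Vehicle replicate 2 stood apart, with a median Pearson correlation across genes of 0.969 with the other libraries where the others had 0.984 to 0.989 (genes are not independent replicates). Its values depended on transcript length: relative to the mean of vehicle replicates 1 and 3, its median difference in log2(FPKM + 1) was 0.45 over 1311 genes with a longest annotated transcript below 1500 nt and -0.49 over 1517 genes at 6000 nt or longer. The differences of the tested members are therefore given with and without it. Markers of microglia were present in 11 of 12 cases, with a summed level of 650 to 709 FPKM with vehicle and 586 to 672 FPKM in the C13 group, while Siglech had 0.01 FPKM, the smallest value that the table contains, in every library. The identity genes Tmem119 (5.36 to 6.94 FPKM) and P2ry12 (1.30 to 3.18 FPKM) were low. RNA of mesenchymal cells was abundant: Col1a1 had 1773 to 2137 FPKM and Acta2 1125 to 1793 FPKM, and the summed markers of fibroblast, mural and endothelial cells reached 5298 to 5994 FPKM with vehicle and 5031 to 5432 FPKM in the C13 group. The endothelial markers Cldn5 (at most 0.0656 FPKM), Pecam1 (at most 0.532 FPKM) and Cdh5 (2.80 to 4.46 FPKM) added little to this sum. The 8 astrocyte markers summed to 47.0 to 58.9 FPKM with vehicle and 64.1 to 112 FPKM in the C13 group, ranges that did not overlap. Much of this sum was Gja1 (32.3 to 52.0 FPKM), and Gfap had 35.6 FPKM in C13 replicate 2 against 2.74 to 8.79 FPKM elsewhere. Gfap, Aqp4, Slc1a2, Slc1a3 and Gja1 did not overlap between the groups, while Aldh1l1, S100b and Sox9 did. Of all genes tested, 6.83% did not overlap on the higher side. The part of these other cells in the results was not tested. In such bulk RNA, fewer cells of a type and less RNA per cell cannot be told apart. The 8 T cell markers in the table summed to 2.90 to 4.11 FPKM in the vehicle group and 2.05 to 3.27 FPKM in the C13 group. Most of this was Lck (1.47 to 3.53 FPKM), Icos had 0.302 to 0.510 FPKM, and Cd3e, Cd3d, Cd3g and Cd8a were listed at 0.01 FPKM throughout. The 9 markers of conventional dendritic cells summed to 6.99 to 7.76 FPKM and 6.49 to 7.81 FPKM. Among them Itgax (3.81 to 5.29 FPKM), Xcr1 (0.670 to 1.36 FPKM) and Zbtb46 (0.583 to 1.78 FPKM) were measured, while Flt3, Clec9a and Cd209a did not exceed 0.0308 FPKM.

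Testing was limited to genes that averaged 1 FPKM or more over the 6 libraries, which 7 of the 8 genes did and Pdcd1lg2 did not. All 7 had lower fitted levels with C13, except that Cd274 was at 0.0022 with quantile normalization and Tnfsf9 at 0.021 after rescaling to a common sum and at 0.0066 with array weights. They had a median difference of -0.29 in log2(FPKM + 1), where the median over all 11412 genes tested was -0.0003 and 50.1% of genes lay below 0. In FPKM as listed, Cd40, Cd80, Cd86 and Cd83 were lower in every C13 library than in any vehicle library. Non-overlap in that direction was seen in 9.78% of all genes tested, and in the higher direction, which no member showed, in 6.83%. The FPKM summed over a library was also lower in every C13 library (504674 to 524549) than in any vehicle library (528593 to 634451). Divided by these sums, Cd40 and Cd83 stayed separate, while Cd80 and Cd86 overlapped between the groups. The separation of Cd80 and Cd86 therefore depended on the scaling. None of the 7 passed the test over all genes (limma, Benjamini-Hochberg adjusted p between 0.365 and 0.842), and limma called 0% of all genes with the 6 libraries. At an unadjusted p under 0.05 limma had 4 genes, Cd40, Cd80, Cd86 and Cd83, on the lower side and none on the higher side. Of all genes, 4.77% (544 genes) were on the lower side and 2.57% (293 genes) on the higher side. Without vehicle replicate 2 limma called 1.07% of all genes lower and 0.412% higher, again with none of the 7 among them (lowest adjusted p = 0.0597). In that comparison 5 of the 7, these 4 and Cd274, had an unadjusted p under 0.05 on the lower side, as did 10.6% of all genes. The labels name separate biological replicates but no culture or litter, so the spread behind each p-value may in part be technical.

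**Figure D1:**
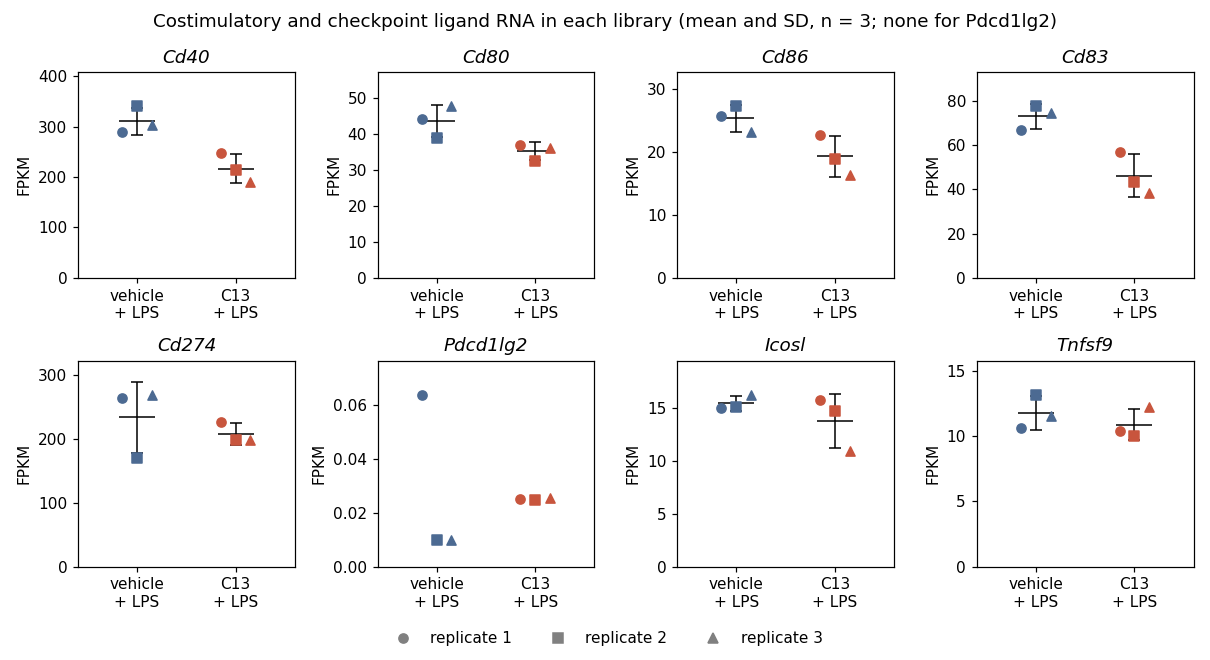
FPKM (vertical axes, linear and starting at 0) of the 8 genes in the 3 vehicle libraries (blue) and the 3 C13 libraries (red), with marker shapes for the replicate number and with the group mean and SD (n = 3) as black bars, except for Pdcd1lg2, which lay near the bottom of the range. The groups are separate for Cd40, Cd80, Cd86 and Cd83, and vehicle replicate 2 is the lowest of all libraries for Cd274.

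Cd40 encodes the receptor for CD40 ligand and had the highest level of the 8 genes with vehicle. It lies on the plus strand of chromosome 2 (165055627 to 165072948, GRCm38) and is annotated as protein-coding, as are the other 7. Its RNA was 289 FPKM, 341 FPKM and 303 FPKM in vehicle replicates 1, 2 and 3 and 247 FPKM, 213 FPKM and 189 FPKM in C13 replicates 1, 2 and 3. All vehicle libraries lay above all C13 libraries, and the nearest were vehicle replicate 1 and C13 replicate 1. The mean was 311 ± 26.7 FPKM in the vehicle group and 217 ± 29.0 FPKM in the C13 group (SD, n = 3 each), 30.3% lower. The difference in log2(FPKM + 1) was -0.52 (SE 0.123, 95% interval -0.81 to -0.24), with an adjusted p of 0.376 in limma. It was -0.46 without vehicle replicate 2 (adjusted p = 0.0897), and C13 replicate 3 was the lowest library.

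Cd80 and Cd86 encode the pair of B7 ligands shared by CD28 and CTLA-4. Both lie on chromosome 16, Cd80 on the plus strand (38455561 to 38496335) and Cd86 on the minus strand (36603869 to 36666081). Cd80 had 44.0 FPKM, 38.7 FPKM and 47.6 FPKM in vehicle replicates 1, 2 and 3, and 37.0 FPKM, 32.4 FPKM and 36.2 FPKM in C13 replicates 1, 2 and 3. The gap between the groups was narrow, since vehicle replicate 2 and C13 replicate 1 lay next to each other. The means were 43.5 ± 4.48 FPKM and 35.2 ± 2.44 FPKM (SD, n = 3), 19.0% lower with C13, and the difference in log2(FPKM + 1) was -0.29 (SE 0.104, 95% interval -0.54 to -0.05, limma adjusted p = 0.601). Cd86 had 25.6 FPKM, 27.2 FPKM and 23.0 FPKM in vehicle libraries, and 22.6 FPKM, 18.8 FPKM and 16.3 FPKM in C13 libraries, in the same order of replicates. Here too one library of each group, vehicle replicate 3 and C13 replicate 1, nearly touched. Cd86 was 23.9% lower with C13 on average, with a difference of -0.39 in log2(FPKM + 1) (SE 0.132, 95% interval -0.70 to -0.08, limma adjusted p = 0.585). Without vehicle replicate 2 the difference was -0.37 for Cd80 (limma adjusted p = 0.0655) and -0.33 for Cd86 (limma adjusted p = 0.249). Cd80 was the more abundant of the pair in each library, at 1.42 to 2.22 times the FPKM of Cd86, and this ratio overlapped between the groups.

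Cd83 encodes a surface glycoprotein of activated antigen-presenting cells, which in the mouse is known to keep MHC class II and CD86 on the cell surface by opposing the ubiquitin ligase MARCH1. It lies on the plus strand of chromosome 13 (43784775 to 43803132). Its levels were 66.6 FPKM, 77.6 FPKM and 74.7 FPKM in vehicle replicates 1, 2 and 3, and 57.0 FPKM, 43.2 FPKM and 38.3 FPKM in C13 replicates 1, 2 and 3. All 3 C13 libraries were below all vehicle libraries, with C13 replicate 1 nearest to them. The means of 72.9 ± 5.69 FPKM and 46.1 ± 9.67 FPKM (SD, n = 3) differed by 36.7%, the widest relative gap among the 7 tested genes. The difference in log2(FPKM + 1) was -0.67 (SE 0.150, 95% interval -1.02 to -0.31, limma adjusted p = 0.365), and it was -0.62 without vehicle replicate 2 (limma adjusted p = 0.103). It lay between -0.82 and -0.54 when each library was left out in turn. For each of the 4 genes with separate groups in FPKM an exact two-sided permutation test over the 6 libraries gave p = 0.1, the smallest p that 3 against 3 libraries allow. Separate groups always give this value, so it adds nothing to the separation itself. The same permutation test gave p = 0.6 for Cd274 and p = 0.4 for Icosl and for Tnfsf9.

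Cd274 and Pdcd1lg2 encode the ligands of PD-1 and are neighbours on the plus strand of chromosome 19, Cd274 at 29367455 to 29388095 and Pdcd1lg2 at 29410919 to 29471161. Cd274 was the second most abundant of the 8 genes, whereas Pdcd1lg2 was close to the smallest value in every library. Their promoters are shown because the pair differed so widely in level, and that of Cd80 because it is the one printed gene with separate groups in FPKM. Each runs from 250 bases before to 50 bases after the RefSeq start on GRCm38.p6, plus strand. For Cd80 this window lies inside the gene span given above, whose GENCODE start (38455561) is upstream of it. Capitals mark matches to the motifs named after the sequences.
Cd274 (chr19:29367188-29367487): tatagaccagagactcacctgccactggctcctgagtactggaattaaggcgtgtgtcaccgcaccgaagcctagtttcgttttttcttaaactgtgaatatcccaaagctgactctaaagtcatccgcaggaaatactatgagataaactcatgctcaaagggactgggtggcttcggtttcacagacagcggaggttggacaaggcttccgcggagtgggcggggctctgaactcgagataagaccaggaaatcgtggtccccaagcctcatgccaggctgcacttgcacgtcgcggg
Pdcd1lg2 (chr19:29410669-29410968): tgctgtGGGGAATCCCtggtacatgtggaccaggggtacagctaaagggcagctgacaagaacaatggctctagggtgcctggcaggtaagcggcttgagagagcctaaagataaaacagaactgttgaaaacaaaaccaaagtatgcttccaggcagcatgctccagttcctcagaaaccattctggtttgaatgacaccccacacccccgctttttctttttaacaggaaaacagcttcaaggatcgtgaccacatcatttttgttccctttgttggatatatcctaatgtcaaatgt
Cd80 (chr16:38458683-38458982): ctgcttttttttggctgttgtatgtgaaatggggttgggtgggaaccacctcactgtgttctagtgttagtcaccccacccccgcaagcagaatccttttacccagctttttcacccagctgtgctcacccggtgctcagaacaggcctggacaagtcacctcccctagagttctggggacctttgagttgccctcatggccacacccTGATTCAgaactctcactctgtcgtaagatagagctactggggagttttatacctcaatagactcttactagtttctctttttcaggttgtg

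Promoters of 4 of the 8 genes were matched in the RefSeq table, these and that of Icosl. Both strands were searched for the STAT motif GAS (TTCNNNGAA), the core of the interferon response element, the NF-kappaB consensus and the AP-1 motif (TGANTCA), which do not overlap in the matches found. The Cd80 window held 1 AP-1 match and the Pdcd1lg2 window 1 NF-kappaB match, and those of Cd274 and Icosl held none. Among 32851 promoters of the same length, 8.3% held the STAT motif, 3.44% the interferon response core, 4.51% the NF-kappaB consensus and 7.81% the AP-1 motif. A match is a string of letters in a window and says nothing of binding.

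Cd274 had 263 FPKM, 170 FPKM and 269 FPKM in vehicle replicates 1, 2 and 3, and 227 FPKM, 198 FPKM and 198 FPKM in C13 replicates 1, 2 and 3. Vehicle replicates 1 and 3 were above all C13 libraries and vehicle replicate 2 was below them, so the groups overlapped. The means were 234 ± 55.7 FPKM and 207 ± 16.6 FPKM (SD, n = 3), with a difference of -0.14 in log2(FPKM + 1) (SE 0.183, 95% interval -0.57 to 0.28, limma adjusted p = 0.842). This interval spans 0 and also the differences seen for Cd80 and Cd86. Without vehicle replicate 2 the difference was -0.36 (SE 0.0674, 95% interval -0.52 to -0.20) with a limma adjusted p of 0.0597 and a mean of 266 FPKM in the other vehicle libraries. Cd274 lay 0.65 below vehicle replicates 1 and 3 in vehicle replicate 2 on the log2 scale, lower than in all but 8.46% of the genes tested. Its longest annotated transcript has 3622 nt, and the median of the 4833 genes of 3000 to below 6000 nt was -0.10 there, with quartiles of -0.35 and 0.13. Whether transcript length set the low value was not tested.

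Pdcd1lg2 was listed at 0.0638 FPKM in vehicle replicate 1, at 0.01 FPKM in vehicle replicates 2 and 3, and at 0.0253 FPKM, 0.0246 FPKM and 0.0255 FPKM in C13 replicates 1, 2 and 3. These values lie near the worth of single fragments and no difference was detectable at this depth. It was below the limit for testing and no fold is given. The gene starts about 43 kb downstream of Cd274, a gene measured at 170 to 269 FPKM in the same libraries.

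Icosl encodes the ligand of ICOS and lies on the plus strand of chromosome 10 (78069302 to 78083913). It had 14.98 FPKM, 15.1 FPKM and 16.2 FPKM in vehicle replicates 1, 2 and 3 and 15.7 FPKM, 14.7 FPKM and 10.9 FPKM in C13 replicates 1, 2 and 3. The groups overlapped, and C13 replicate 3 was the one low library. The difference in log2(FPKM + 1) was -0.17 (SE 0.138, 95% interval -0.49 to 0.16, limma adjusted p = 0.821), and it was -0.02 without C13 replicate 3 and -0.18 without vehicle replicate 2. Tnfsf9 encodes the TNF superfamily ligand of the costimulatory receptor made from Tnfrsf9 and lies on the plus strand of chromosome 17 (57105325 to 57107757). It had 10.6 FPKM, 13.2 FPKM and 11.6 FPKM in vehicle libraries and 10.4 FPKM, 10.1 FPKM and 12.2 FPKM in C13 libraries. Vehicle and C13 values were interleaved, and the difference of -0.10 in log2(FPKM + 1) had a 95% interval of -0.38 to 0.17 (SE 0.116, limma adjusted p = 0.831), and it was -0.03 without vehicle replicate 2. The table gives Tnfsf9 the same locus as Gm11110 (0.571 to 1.97 FPKM), so reads of the 2 rows could be shared. By the depth estimate Tnfsf9 rested on about 122 to 183 fragments per library and Icosl on 342 to 498, whereas Cd40 rested on more than 6293.

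**Figure D2:**
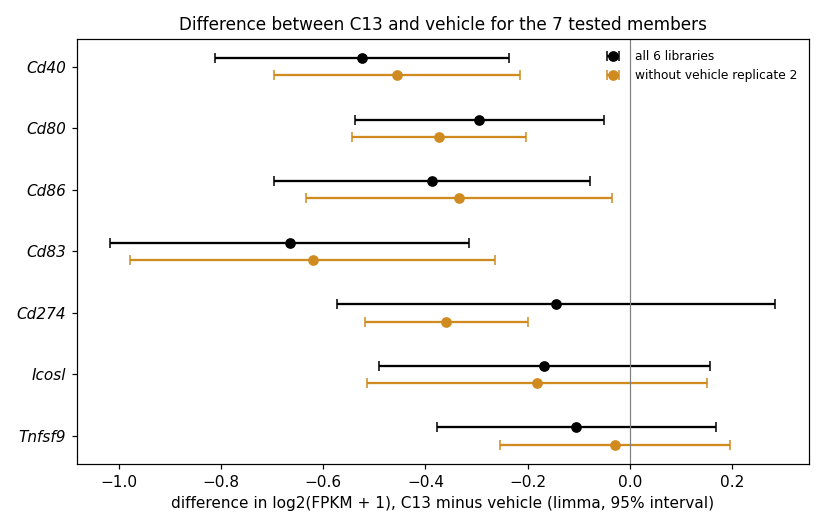
Difference in log2(FPKM + 1), C13 minus vehicle, of the 7 tested genes (horizontal axis), with points for the limma estimate and bars for its 95% interval, in black with all 6 libraries and in orange without vehicle replicate 2. The intervals of Cd40, Cd80, Cd86 and Cd83 lie below 0 in both fits, and that of Cd274 does so only without vehicle replicate 2; these intervals are not adjusted for the number of genes.

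The order of levels with vehicle was Cd40, Cd274, Cd83, Cd80, Cd86, Icosl, Tnfsf9 and Pdcd1lg2, and each neighbour in that order was separated from the next in all 3 libraries. With C13 the order of the means was the same. There Cd40 (189 to 247 FPKM) and Cd274 (198 to 227 FPKM) overlapped, as did Icosl and Tnfsf9, and Cd274 exceeded Cd40 in C13 replicate 3. The ratio of Cd274 to Cd40 was 0.91, 0.498 and 0.887 in vehicle replicates 1, 2 and 3 and 0.917, 0.926 and 1.05 in C13 replicates 1, 2 and 3. The 2 ranges of this ratio met almost exactly, between vehicle replicate 1 and C13 replicate 1. The ratio of Cd83 to Cd86 was 2.60 to 3.24 with vehicle and 2.30 to 2.52 with C13 and did not overlap. Of the 6 ratios computed these were the 2 without overlap, and none was tested. The ratio of Cd274 to Cd86, a ligand of PD-1 against a ligand of CD28, was 6.23 to 11.7 with vehicle and 10.0 to 12.2 with C13.

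Within the C13 group the genes did not all move together. Cd40, Cd86 and Cd83 were each nearest to vehicle in C13 replicate 1 and farthest from it in C13 replicate 3, where they lay 0.71, 0.60 and 0.91 below the vehicle mean on the log2(FPKM + 1) scale. Cd80 was lowest in C13 replicate 2, at -0.41, and Icosl was low in C13 replicate 3 alone, at -0.46. In vehicle replicate 2 Cd40, Cd86, Cd83 and Tnfsf9 were above the vehicle mean by 0.09 to 0.15, while Cd80 was at -0.16 and Cd274 at -0.43.

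**Figure D3:**
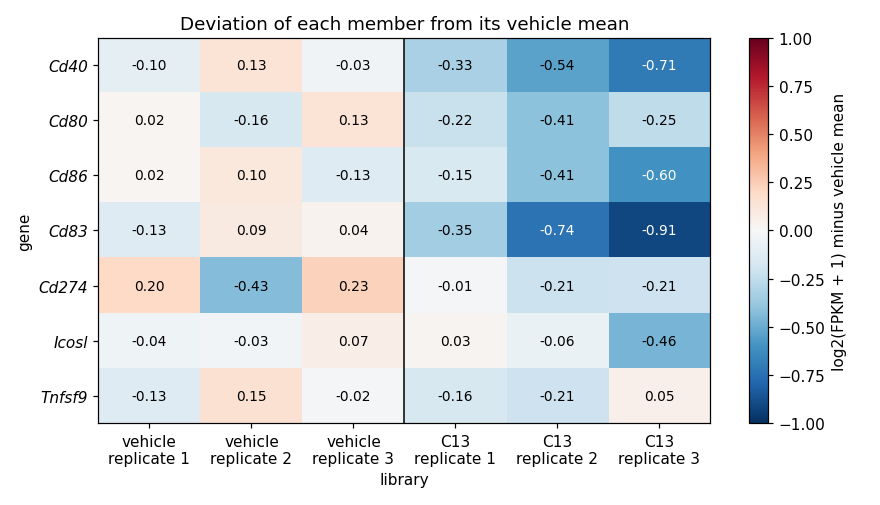
Deviation of each of the 7 tested genes (rows) from its vehicle mean in each library (columns), in log2(FPKM + 1), with blue for lower and red for higher and the value printed in each cell. Cd40, Cd86 and Cd83 are each lowest in C13 replicate 3, at -0.71, -0.60 and -0.91, and Cd274 is at -0.43 in vehicle replicate 2.

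Likeness of profiles was measured as the root mean square distance between log2(FPKM + 1) values, each centred on its mean over the 6 libraries. Over these 6 libraries Cd40 and Cd86 were 0.096 apart and Cd40 and Cd83 0.099 apart, where the profile of Cd40 itself varied by 0.293 (root mean square). Of all tested genes 25 were nearer to Cd40 than Cd86 was, and 3 nearer to Cd83 than Cd40 was. The genes nearest to Cd40 were Hdc, which encodes histidine decarboxylase (distance 0.046), and Fhl2 (0.054). Near Cd83 lay the interferon-induced chemokine gene Cxcl11 (0.092), and the genes nearest to Cd86 were Olfm2 (0.049) and G530011O06Rik (0.067). Cd80 was nearest to Il10ra, which encodes a chain of the interleukin 10 receptor (0.027), and to the prostaglandin transporter gene Slco2a1 (0.032). Cd274 was nearest to Timp3, an inhibitor of metalloproteinases (0.0086), and to Arid4a (0.030), both of which had their lowest level in vehicle replicate 2. Timp3 had 1138 FPKM, 725 FPKM and 1139 FPKM in vehicle libraries and 974 FPKM, 847 FPKM and 853 FPKM in C13 libraries. Icosl was nearest to Has1 (0.052) and Fermt1 (0.055), and Tnfsf9 to Pcp4l1 (0.025) and Vill (0.036). The nearest member to Cd80 was Cd274 and the reverse, at 0.166, with 1553 and 1358 tested genes nearer. Icosl was 0.161 from Cd86 and Tnfsf9 0.195 from Cd80, their nearest members, with 1081 and 6138 genes nearer. Among 11412 profiles of 6 values some lie near any gene, and these names describe likeness only.

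Related genes were read from lists chosen with earlier results of these data known, and none of their members passed over all genes (limma, 0 in either direction in each list with the 6 libraries). Of the other B7 and butyrophilin-like ligands, 6 of 7 were in the table and 1 was abundant enough to test. This was Cd276, a B7 family member with inhibitory and stimulatory activities described, at 24.5 ± 0.689 FPKM in the vehicle group and 18.8 ± 0.688 FPKM in the C13 group (SD, n = 3). Its groups did not overlap, as was so on the lower side for 9.78% of all genes tested. Its difference of -0.36 in log2(FPKM + 1) had a limma adjusted p of 0.316. Without vehicle replicate 2 the limma adjusted p was 0.0386, when limma called 1.07% of all genes lower. Vtcn1, Btnl2, Btn1a1 and Btn2a2 did not exceed 0.0758 FPKM.

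Among 6 other costimulatory TNF superfamily ligands 4 were tested, with a median difference of -0.26, or -0.47 without vehicle replicate 2, and 3 of 4 below 0. Tnfsf18, the ligand of the receptor GITR, averaged 17.8 ± 4.13 FPKM in the vehicle group and 9.95 ± 2.74 FPKM in the C13 group, and Tnfsf4, the ligand of OX40, had 3.09 ± 0.528 and 1.92 ± 0.450 FPKM (SD, n = 3). Their groups did not overlap and their limma adjusted p was 0.462 and 0.562. They were named for the smallest p of their list, and 9.78% of all genes tested did not overlap on the lower side. Tnfsf15 had 31.3 ± 10.6 and 29.5 ± 3.95 FPKM and overlapped, with a difference of -0.03 in log2(FPKM + 1). Its level was lowest in vehicle replicate 2, without which the difference was -0.34 (limma adjusted p = 0.157). Of the 14 T cell counter-receptors 3 were tested (median -0.17, or 0.01 without vehicle replicate 2). Havcr2, which myeloid cells also express, had 10.2 ± 0.671 and 8.96 ± 0.501 FPKM (limma adjusted p = 0.785), and Lag3 had 1.23 ± 0.625 and 0.887 ± 0.0611 FPKM (limma adjusted p = 0.823). The Lag3 difference was -0.21 in log2(FPKM + 1) with all libraries and turned to 0.01 without vehicle replicate 2. Ctla4 and Cd40lg were at 0.01 FPKM in every library.

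Genes of CD40 signalling, the TRAF adaptors and NF-kappaB subunits and inhibitors, were all tested (18 of 18) and had a median difference of -0.06, with 10 below 0 and 8 above. Traf1, an adaptor that is itself an NF-kappaB target, averaged 62.5 ± 11.5 FPKM in the vehicle group and 44.6 ± 2.41 FPKM in the C13 group (SD, n = 3, limma adjusted p = 0.485). Ikbkg, the regulatory subunit of the IkappaB kinase, was the other way, at 12.2 ± 1.19 and 15.3 ± 0.896 FPKM (limma adjusted p = 0.568). Nfkbia, the most abundant of the list, had 405 ± 13.7 and 374 ± 6.37 FPKM (limma adjusted p = 0.821).

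The 17 interferon and JAK-STAT genes known as regulators of Cd274 and Cd40 had a median of -0.11, with 14 below 0, and a median of -0.20 without vehicle replicate 2. When libraries were rescaled to a common sum, the median of all genes was 0.13 and that of this list 0.02, and the lists of CD40 signalling, synapse ligands, surface control and the dendritic cell programme had medians of 0.06, 0.03, 0.05 and 0.04, all above 0 but below that of all genes. Irf8, a transcription factor of the myeloid lineage, had 35.8 ± 2.93 and 25.9 ± 2.77 FPKM (SD, n = 3, limma adjusted p = 0.380), and the feedback inhibitor gene Socs3 had 196 ± 18.2 and 158 ± 4.83 FPKM (limma adjusted p = 0.516). Adhesion and other synapse ligands (16 of 19 tested) had a median of -0.10, with 10 below 0. Timd4, a phosphatidylserine receptor, had 5.34 ± 1.31 and 2.97 ± 0.608 FPKM (limma adjusted p = 0.485, or 0.0417 without vehicle replicate 2), and Lgals9, which encodes a ligand of the Havcr2 product, had 372 ± 47.6 and 281 ± 19.9 FPKM (limma adjusted p = 0.490).

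Genes that act on surface CD86, CD83 or PD-L1 (10 of 12 tested) had a median of -0.08, or 0.01 with quantile normalization, with 7 below 0. Il10, whose product restrains costimulation by macrophages, had 19.9 ± 1.03 and 15.2 ± 0.985 FPKM (limma adjusted p = 0.393). Il10ra had 30.6 ± 3.10 and 24.8 ± 2.38 FPKM (limma adjusted p = 0.630), and the ubiquitin ligase adaptor gene Spop had 60.3 ± 0.709 and 57.4 ± 2.18 FPKM (limma adjusted p = 0.825). Of 16 genes of the migratory dendritic cell programme, which includes high Cd40, Cd80, Cd86 and Cd83, 13 were tested and their median was -0.07 (-0.28 without vehicle replicate 1 and 0.01 without vehicle replicate 2), with 7 below 0 and 6 above. Ccl22, a chemokine of that programme, had 27.3 ± 3.05 and 15.1 ± 3.33 FPKM (SD, n = 3, limma adjusted p = 0.314), and the actin-bundling gene Fscn1 had 169 ± 17.9 and 140 ± 9.92 FPKM (limma adjusted p = 0.644). Ccr7, which guides migration, did not exceed 0.236 FPKM.

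**Figure D4:**
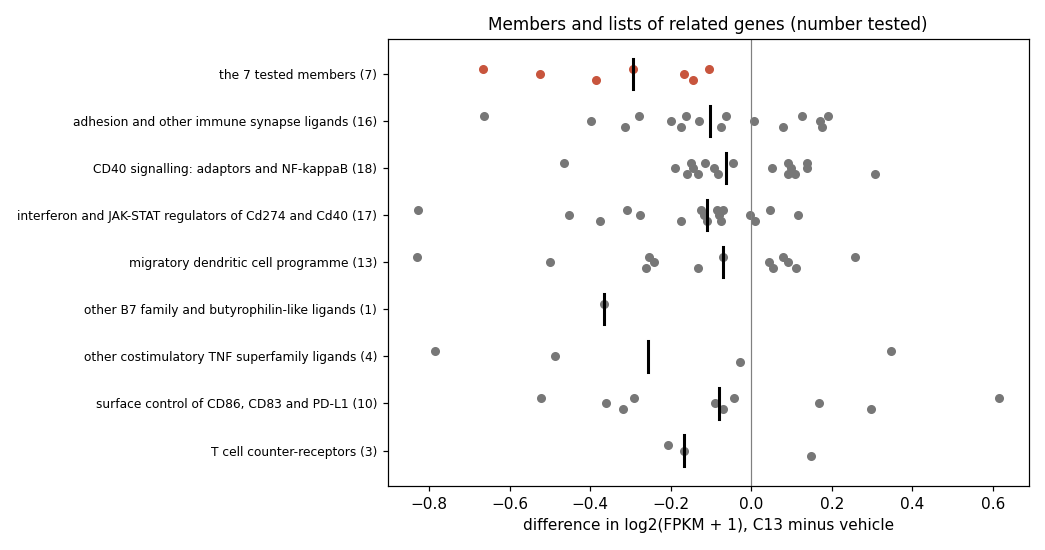
Difference in log2(FPKM + 1), C13 minus vehicle, of each tested gene (points, displaced vertically for legibility), in red for the 7 genes followed here and in grey for the 8 lists of related genes, with the median of each row as a black bar. The median of the 7 genes is at -0.29, and the lists of 10 or more tested genes have medians between -0.11 and -0.06. The smaller lists are at -0.36 (other B7 ligands, 1 gene), -0.26 (other TNF superfamily ligands, 4 genes) and -0.17 (T cell counter-receptors, 3 genes).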

How the data were processed

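Libraries were made from bead-selected poly-A RNA with a stranded kit, per the labels. The deposited values are FPKM made by the authors, who used TopHat2 2.1.0, Cufflinks and the build mm10 (submitters' processing notes); annotation and strand setting: not given in the sources used here. Columns were matched to samples by their descriptions and groups taken from titles (3 vehicle, 3 C13). Read totals are not in the table, and the smallest steps above the lowest value put the depth at about 8890000 to 11550000 fragments per library. FPKM of genes with a mean of at least 1 over the 6 libraries (11412 genes) were analysed as log2(FPKM + 1) by limma 3.58.1 under R 4.3.3 (a moderated test with an intensity trend, two-sided, Benjamini-Hochberg over all 11412 genes, threshold 0.05), a scale that understates differences of low genes. The fit was tested on simulated data. With 6 libraries it called 19.6% of genes changed by 0.5 in log2(FPKM + 1) and 73% of those changed by 1. A gene that was not called is therefore not shown to be unchanged. FPKM depends on assumed transcript lengths and on the other RNA of a library.

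Gene positions and transcript lengths are from GENCODE mouse release 21 (GRCm38, the assembly called mm10), promoters from RefSeq on GRCm38.p6, and a length was found for 96.3% of the tested genes. The members and lists were chosen with earlier results of these data known. Besides the 8 members, the rule named of each list the 2 tested genes with the smallest p and the most abundant one, and the 2 genes nearest to each member in profile. A gene that this rule took is not reported here. Chosen after their values were seen were the genes named as low or at the lowest value, Gm11110 and March1. So were the cell type markers named singly, among them Col1a1, Acta2, Gja1, Gfap, Ptprc, Itgam, Aif1, Trem2 and Fcrls. Exact permutation tests used scipy 1.17.1. Alternatives were 2 other pseudocounts, 2 other filters, quantile normalization, rescaling to TPM, array weights, no intensity trend, 2 replicate blocks and leaving out each library.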

Additional observations from a re-analysis of the deposited data

How the results depend on the processing

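None of the 7 tested genes passed the threshold under any of the 16 alternatives, and 109 of their 112 values kept their sign. The exceptions were Cd274 with quantile normalization (0.0022), Tnfsf9 with rescaling to TPM (0.021, which is -0.10 relative to the shift of all genes of 0.13) and Tnfsf9 with array weights (0.0066), and the cause was not tested. Rescaling to TPM put Cd80 at -0.16 and Cd86 at -0.26, or -0.29 and -0.39 relative to the shift of all genes. Limma then had 2 of the 7 genes, Cd40 and Cd83, at an unadjusted p under 0.05, against 4 in the main fit. Of all 11412 genes, 201 were then on the lower side and 635 on the higher side, against 544 and 293 in the main fit. Leaving out each library in turn gave -0.62 to -0.43 for Cd40, -0.37 to -0.23 for Cd80, -0.50 to -0.28 for Cd86, -0.82 to -0.54 for Cd83, -0.36 to -0.03 for Cd274, -0.26 to -0.02 for Icosl and -0.18 to -0.03 for Tnfsf9. In these 6 fits the unadjusted limma p was under 0.05 in all 6 for Cd40 and Cd83. It was so in 3 for Cd86, 2 for Cd80, 1 for Cd274 and 0 for Icosl and Tnfsf9. Genes called over the whole table numbered 0 higher and 0 lower with all 6 libraries, against 0 to 47 higher and 0 to 122 lower when a library was left out, the high counts being those without vehicle replicate 2. They were 11 higher and 1 lower with no filter on low values, 7 higher with quantile normalization, 2 higher with rescaling to TPM, 18 higher and 24 lower with array weights and 1 higher with no intensity trend. Of 128 list medians 108 moved by less than the spread between replicates and 20 moved by more. The replicate block by title number gave 0 calls. Its member differences had to equal those of the main fit, for example -0.52 for Cd40, since each block held 1 library of each group. The other filters and the fit with no intensity trend also leave the member differences unchanged. The count of 109 therefore includes signs that could not differ. In the same way the count of 108 includes list medians that could not move. Deviations of same-numbered libraries correlated by 0.089, 0.129 and 0.098, and each library correlated best with its own number. These correlations are low and few matchings of 3 with 3 libraries are possible. The labels name no pairing, so none was established. A replicate block by the numbers in the descriptions, 2 of which occur in both groups, was chosen after the column names were seen. Vehicle replicate 2 and C13 replicate 1 are alone in their blocks, so this fit rests on 2 pairs and in effect leaves out both libraries, and the deviations of the pairs correlated by -0.101 and 0.098. It gave 16 genes higher and 24 lower, and among the members a lowest adjusted p of 0.0544, for Cd83 and Cd274. At this depth Pdcd1lg2 could not be compared.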

Other observations

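March1, a ubiquitin ligase known in the mouse to remove CD86 and MHC class II from the cell surface, was measured on the list of genes acting on surface CD86, CD83 and PD-L1, and is named here after its values were seen. It had 17.4 ± 5.93 FPKM in the vehicle group and 26.1 ± 1.94 FPKM in the C13 group (SD, n = 3), and its groups did not overlap, while 6.83% of all genes tested did not overlap on the higher side. Its difference in log2(FPKM + 1) was 0.62 with all 6 libraries (limma adjusted p = 0.630) and 0.32 without vehicle replicate 2. Ptprc and Itgam, which encode leukocyte surface proteins and were fixed as microglia markers, were lowest in vehicle replicate 2, at 21.2 FPKM and 42.9 FPKM, against 35.2 to 42.4 FPKM and 66.9 to 80.1 FPKM in the other libraries. Other markers of that list were highest there: Aif1 had 48.3 FPKM against 28.6 to 36.9 FPKM elsewhere, Trem2 219 FPKM against 141 to 165 FPKM, and Fcrls 128 FPKM against 86.5 to 109 FPKM.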
